A study of Mus musculus with 12 samples.

Results

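Imprinted growth genes are read from only the maternal or only the paternal copy of a chromosome, and they regulate how much the embryo and its tissues grow. The 10 described here are H19, Igf2, Igf2r, Grb10, Plagl1, Meg3, Dlk1, Peg3, Mest and Cdkn1c, chosen by their mouse symbols and matched through Ensembl identifiers. They are 10 of the 37991 genes in the count tables, and all 10 passed the filter on low counts that left 15327 genes to test. RNA-seq was done on primary mouse embryonic fibroblasts (MEFs), which are fibroblasts grown directly from embryos, labelled as strain FVB, taken at embryonic day 13.5 and used at passage 3. The 2 genotypes were wild type and E2f1 3KR/3KR, a knock-in in which 3 lysines of the transcription factor E2F1 that can be acetylated are replaced by arginine in both copies of the gene. Cells were untreated or received neocarzinostatin (NCS), a drug that breaks DNA as radiation does, at 250 ng/ml for 3 h, with 3 samples in each of the 4 groups. The embryos came from crosses of heterozygous or homozygous parents, and the labels do not say how many embryos stand behind the samples of a genotype, so the p-values given here measure only the spread between these samples. The mutation is present from fertilization in every cell, and the counts do not separate the maternal from the paternal copy of any gene.

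At an imprinted locus, a control region that carries DNA methylation from only the egg or only the sperm decides which copy is active, and neighbouring genes are often active from opposite copies. Igf2, Plagl1, Dlk1, Peg3 and Mest are active from the paternal copy, and H19, Igf2r, Grb10, Meg3 and Cdkn1c from the maternal copy in fibroblasts of the embryo. Many of them are abundant before birth and are turned down afterwards, and H19 and Igf2 are very abundant in the mesoderm of the embryo, from which fibroblasts come.

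H19 is a long noncoding RNA without a protein product, from the maternal copy. Its gene lies at chr7:142575529-142578143 on the minus strand (GRCm38, as for all positions here, from GENCODE release M21), and it carries in an exon the hairpin of miR-675. The 2 mature arms of miR-675, from RefSeq (GRCm38.p6), are shown because they are what H19 RNA can be cut into, with the seed (bases 2 to 8) in capitals.
miR-675-5p: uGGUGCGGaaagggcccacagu
miR-675-3p: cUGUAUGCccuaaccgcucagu
The hairpin itself was given 0 counts in every sample, where 3 counts would be 0.0663 to 0.0904 CPM (counts scaled to a fixed library total). It shares 84 bases with H19 exons on the same strand, and how reads shared by 2 genes were counted is not given. The 0 thus cannot be read as absence of the hairpin, and mature miRNAs were not measured here.

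The promoter windows of Dlk1, Mest and Plagl1, the members with the largest differences in favour of 3KR MEFs described further on, run from 250 bases before to 50 bases after the start site (RefSeq, GRCm38.p6). Capitals mark any match on either strand to the E2F words TTTCCCGC, TTTGGCGC, TTTCGCGC and TTTGCCGC, or to TGCCGC, the word bound by ZFP57, a protein that keeps imprints methylated. All 3 genes are on the plus strand.
Dlk1, chr12:109452573-109452872: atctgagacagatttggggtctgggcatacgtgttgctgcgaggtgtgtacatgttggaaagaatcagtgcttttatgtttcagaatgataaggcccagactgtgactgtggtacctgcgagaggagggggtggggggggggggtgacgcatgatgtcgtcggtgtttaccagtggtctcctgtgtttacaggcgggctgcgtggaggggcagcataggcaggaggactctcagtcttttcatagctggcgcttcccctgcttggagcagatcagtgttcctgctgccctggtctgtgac
Mest, chr6:30737800-30738099: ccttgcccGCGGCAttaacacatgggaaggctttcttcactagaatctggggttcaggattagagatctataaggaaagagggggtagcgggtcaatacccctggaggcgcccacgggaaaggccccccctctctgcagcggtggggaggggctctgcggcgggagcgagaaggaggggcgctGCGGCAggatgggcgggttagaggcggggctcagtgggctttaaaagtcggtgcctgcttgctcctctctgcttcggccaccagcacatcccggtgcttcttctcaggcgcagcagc
Plagl1, chr10:13090582-13090881: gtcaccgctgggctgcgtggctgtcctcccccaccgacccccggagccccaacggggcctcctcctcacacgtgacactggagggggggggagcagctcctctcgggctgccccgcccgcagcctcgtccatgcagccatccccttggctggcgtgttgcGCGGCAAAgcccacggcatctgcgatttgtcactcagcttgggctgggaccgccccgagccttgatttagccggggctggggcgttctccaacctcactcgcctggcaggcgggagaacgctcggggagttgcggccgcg
Windows were found for 8 members, 15 in all, and none for H19 and Cdkn1c. Plagl1 alone among these held an E2F word, 90 to 83 bases before the start site, which overlaps a TGCCGC match there, and 2.26% of all 32851 windows held an E2F word. TGCCGC was in 6 of the 15 member windows, which belong to Mest, Plagl1, Igf2, Grb10 and Meg3 with 2 overlapping windows for Mest, and in 11.6% of all windows. The Mest window printed here held it at 2 places. The windows of Dlk1, Mest and Plagl1 held 9, 17 and 26 CpG, where the median over all windows was 7.

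Each sample held between 33203757 and 45279321 counted reads. All 8 fibroblast markers passed the filter, and their summed normalized count was 1618090 to 1743040 in wild-type and 1889630 to 1972230 in 3KR MEFs. Without treatment 7 of the 8 were higher in 3KR MEFs, among them Pdgfra (1.67, log2) and Lum (1.34), and Vim was lower. Markers of other cells differed between the genotypes as well. The sum of 7 Schwann cell and neural crest markers was 7701 to 8047 in wild-type MEFs and 1391 to 1655 in 3KR MEFs, that of 7 macrophage markers 1419 to 1735 and 2658 to 3071, that of 7 skeletal muscle markers 4648 to 4867 and 1615 to 1710, and that of 5 cartilage markers 25173 to 27518 and 15734 to 16739. Without treatment 5 of 7 Schwann cell markers were lower in 3KR MEFs, as were 3 of the 3 muscle markers tested, and 7 of 7 macrophage markers were higher. Of all tested genes, 22.1% passed as higher and 23.6% as lower in that comparison. Most of the cartilage sum was Col2a1, which was lower in 3KR MEFs (-1.23), while Acan (2.68) and Sox9 (0.38) were higher and Col9a1 (0.20, FDR = 0.299) did not pass. Most of the muscle sum was Des (desmin), while Myod1, Myf5, Pax7 and Myog had at most 13 counts, and liver markers summed to at most 15.2. The sums of 5 endothelial and 5 epithelial markers were at most 257 and 122 in any sample. Xist, which is made by the inactive X chromosome of female cells, was at 30590 to 35635 in 3KR MEFs and 32.3 to 62.5 in wild-type MEFs, and the Y-linked Ddx3y was at 16.2 or less in 3KR and at 5370 to 5822 in wild-type MEFs. In every comparison of 3KR with wild-type MEFs, genotype, sex and source embryo cannot be told apart, and the part of these cell markers in the results was not tested. In bulk RNA, fewer cells of a type and less RNA per cell also cannot be told apart. Replicate 3 of the wild-type samples stood apart in both treatments, since its mean chi-square over genes against the other wild-type replicates was 7.57 to 9.37, and all other pairs of replicates gave 2.03 to 2.34. E2f1 itself, which the knock-in does not delete, was at 1042 to 1296 in wild-type and 1111 to 1259 in 3KR MEFs. Cdkn1a, a p53 target that marks a DNA damage response, rose after NCS by 1.18 (log2, FDR = 1.32e-18) in wild-type and by 1.34 (FDR = 1.02e-19) in 3KR MEFs. Its response was thus higher in 3KR MEFs, by 0.16 (FDR = 0.0189). Its level was lower in 3KR than in wild-type MEFs, both untreated (-0.83, FDR = 2.86e-17) and after NCS (-0.67, FDR = 1.65e-15).

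Levels were compared between genes as normalized counts (counts divided by the DESeq2 size factor of the sample) per kb of exon. In untreated wild-type MEFs the order was H19 with a mean of 25863, Igf2 with 9437, Grb10 with 3905, Igf2r with 1740, Meg3 with 1649, Mest with 443, Dlk1 with 389, Plagl1 with 360, Peg3 with 280 and Cdkn1c with 261. The ranges of Igf2r and Meg3 overlapped, as did those of Dlk1 and Plagl1, so that those neighbours in the order did not differ beyond their spread. In untreated 3KR MEFs H19, Igf2, Grb10 and Igf2r kept the first 4 places, and Dlk1 moved from the seventh place to the fifth with 1444 per kb, just above Meg3 with 1423. No neighbours overlapped there. After NCS Plagl1 and Dlk1 overlapped in wild-type MEFs, Mest and Plagl1 in 3KR MEFs, and Peg3 and Cdkn1c in both genotypes. Of all counts, the 10 genes took 0.549% to 0.571% in wild-type MEFs and 0.424% to 0.458% in 3KR MEFs. The length of Meg3 is the union of its many annotated exons, 18089 bases, so its level per kb is low for any shorter isoform.

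**Figure D1:**
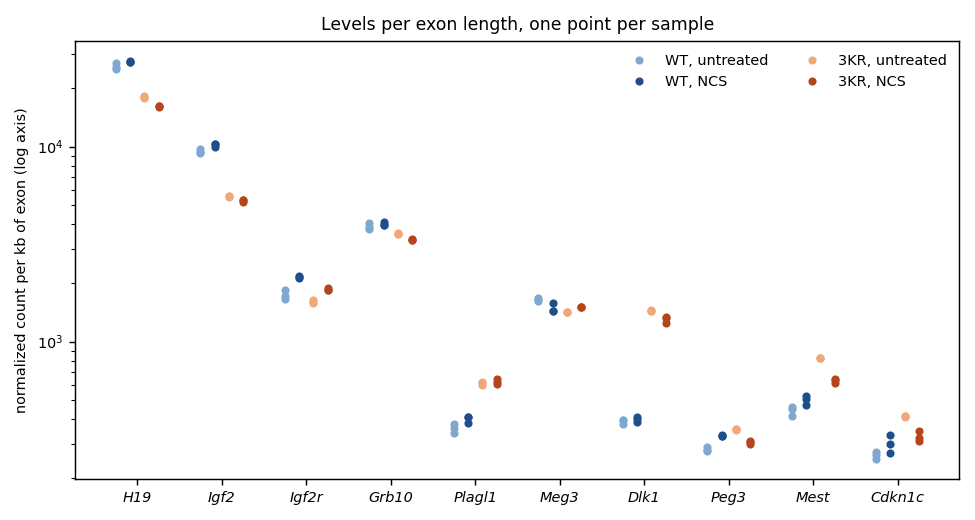
Normalized count per kb of exon (vertical log axis) of the 10 imprinted growth genes, with 1 point per sample and 4 colours for the groups. H19 was highest in every group, and Dlk1 sat near 389 in untreated wild-type MEFs and near 1444 in untreated 3KR MEFs.

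The first comparison asked how the E2F1 mutation went with the level of these genes in cells that had no added DNA damage. All 10 genes differed between untreated 3KR and wild-type MEFs by the quasi-likelihood test of edgeR, at a false discovery rate (FDR, Benjamini-Hochberg over all tested genes) under 0.05. Dlk1, Mest, Plagl1, Cdkn1c and Peg3 were higher in 3KR MEFs, and Igf2, H19, Meg3, Grb10 and Igf2r were lower. Of all 15327 genes, 45.7% passed the same threshold, 22.1% higher and 23.6% lower, and of the 7806 genes at or above the mean level of the lowest member 52.8% did. The ranges of normalized counts did not overlap for any of the 10, and for 53.5% of all genes. The median log2 fold change was 0.11 over the members and -0.00 over all genes. Among the paternally active genes 4 of 5 were higher and only Igf2 was lower. Among the maternally active genes 4 of 5 were lower and only Cdkn1c was higher. The 10 genes were chosen with earlier results of these data known, and some share a domain. Whether direction went with the active copy was not tested. Of 41 other genes listed as imprinted and tested, 8 were higher and 14 lower, and these were not split by copy. Each of the 10 kept its direction and its call in every alternative analysis of this comparison. Values after the sign ± of a log2 fold change below are standard errors, taken as its size divided by the square root of F. After a normalized count or a ratio they are SDs of the 3 samples of a group.

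Dlk1, a transmembrane protein related to Notch ligands that holds back the differentiation of fat and other cells, had the largest difference. Its normalized count was 2139, 2231 and 2239 in untreated wild-type MEFs and 8090, 8250 and 8169 in untreated 3KR MEFs. Every 3KR sample was thus more than 3 times every wild-type sample, and the log2 fold change was 1.89 ± 0.037 (3.70-fold, FDR = 9.18e-22). By log2 fold change Dlk1 held place 205 from the highest of the 15327 genes. Meg3, the maternally active noncoding RNA of the same domain (chr12:109541001-109571726, downstream of Dlk1 at chr12:109452823-109463336), went the other way. It was at 29941, 29409 and 30120 in wild-type and at 25790, 25699 and 25736 in 3KR MEFs, so each 3KR sample lay below each wild-type sample (-0.22 ± 0.031, FDR = 3.50e-06). The ratio of Meg3 to Dlk1 per kb of exon, a value with no test, was 4.24 ± 0.13 (SD, n = 3) in wild-type and 0.985 ± 0.011 in 3KR MEFs. Of the other genes listed for this domain, Rtl1, a retrotransposon-derived gene needed by the placenta, was higher in 3KR MEFs (118 ± 11.2 against 67.5 ± 8.92 normalized counts, FDR = 0.000130). Dio3, the enzyme that inactivates thyroid hormone, was at 340 ± 25.6 against 174 ± 45.1 (FDR = 6.74e-06) and Begain at 471 ± 3.57 against 398 ± 15.8 (FDR = 0.00541), both higher in 3KR MEFs as well.

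Igf2 codes for insulin-like growth factor 2, the fetal growth factor that drives growth through the IGF1 and insulin receptors. It was at 53566, 53106 and 55348 in untreated wild-type MEFs and at 32077, 31508 and 31951 in untreated 3KR MEFs. The groups were far apart relative to their spread, with a log2 fold change of -0.77 ± 0.026 (1.70-fold lower, FDR = 2.19e-17). H19, which shares enhancers with Igf2 on chromosome 7 but is active from the other copy, was at 62831, 61828 and 66210 in wild-type and at 43704, 44503 and 44164 in 3KR MEFs. It was lower as well (-0.53 ± 0.025, 1.45-fold, FDR = 1.85e-14). The H19 to Igf2 ratio per kb was 2.74 ± 0.038 (SD, n = 3) in wild-type and 3.22 ± 0.059 in 3KR MEFs. These genes together took 0.306% to 0.319% of the counts of untreated wild-type samples and 0.203% to 0.204% of those of untreated 3KR samples. The gene model Gm49394 covers 62.8% of the exons of Igf2 on the same strand, and its identifier is not among those counted.

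Igf2r codes for the receptor that takes IGF2 to the lysosome for destruction. It was at 15438, 16047 and 17113 in untreated wild-type MEFs and at 14661, 15169 and 14915 in 3KR MEFs, so that the lowest wild-type sample was just above the highest 3KR sample. The log2 fold change was small, -0.12 ± 0.033 (FDR = 0.00317). Airn, the noncoding RNA that runs across Igf2r in antisense and shares no exon with it, was at 240 ± 23.2 normalized counts in wild-type and 192 ± 34.7 in 3KR MEFs (FDR = 0.0327). Grb10 codes for an adaptor that dampens signalling by the insulin and IGF1 receptors, and it was at 34380, 35019 and 37066 in wild-type and at 32269, 32314 and 32622 in 3KR MEFs (-0.14 ± 0.028, FDR = 0.000243). Both genes were only slightly lower in 3KR MEFs, by 1.09-fold for Igf2r and 1.10-fold for Grb10.

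Plagl1 codes for a zinc finger protein that arrests the cell cycle and binds regulatory regions of other imprinted genes. It was at 2825, 2654 and 2965 in untreated wild-type MEFs and at 4812, 4881 and 4709 in 3KR MEFs (0.76 ± 0.040, FDR = 1.06e-13). Mest, an enzyme of the alpha/beta hydrolase family with a role in embryonic growth, was at 1784, 1632 and 1828 in wild-type and at 3246, 3234 and 3239 in 3KR MEFs (0.88 ± 0.045, FDR = 6.76e-14). Both were higher in every 3KR sample than in any wild-type sample, by 1.70-fold and 1.85-fold. On the opposite strand Copg2 shares 912 bases, 23.1%, of the exons of Mest. Its own level did not pass the test (0.06, FDR = 0.380), and whether the counting kept the strands apart is not given in the sources used here. Cdkn1c codes for p57, an inhibitor of cyclin-dependent kinases, and it was at 553, 535 and 511 in wild-type and at 844, 847 and 842 in 3KR MEFs (0.66 ± 0.070, FDR = 3.53e-08). Gm44732 lies in antisense to 30.7% of the exons of Cdkn1c, and its identifier is not among those counted either. Peg3, a large zinc finger protein with a role in growth and maternal behaviour, was at 3656, 3712 and 3821 in wild-type and at 4760, 4741 and 4722 in 3KR MEFs (0.34 ± 0.032, FDR = 3.97e-09). The 3KR samples were higher for both genes with no overlap.

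**Figure D2:**
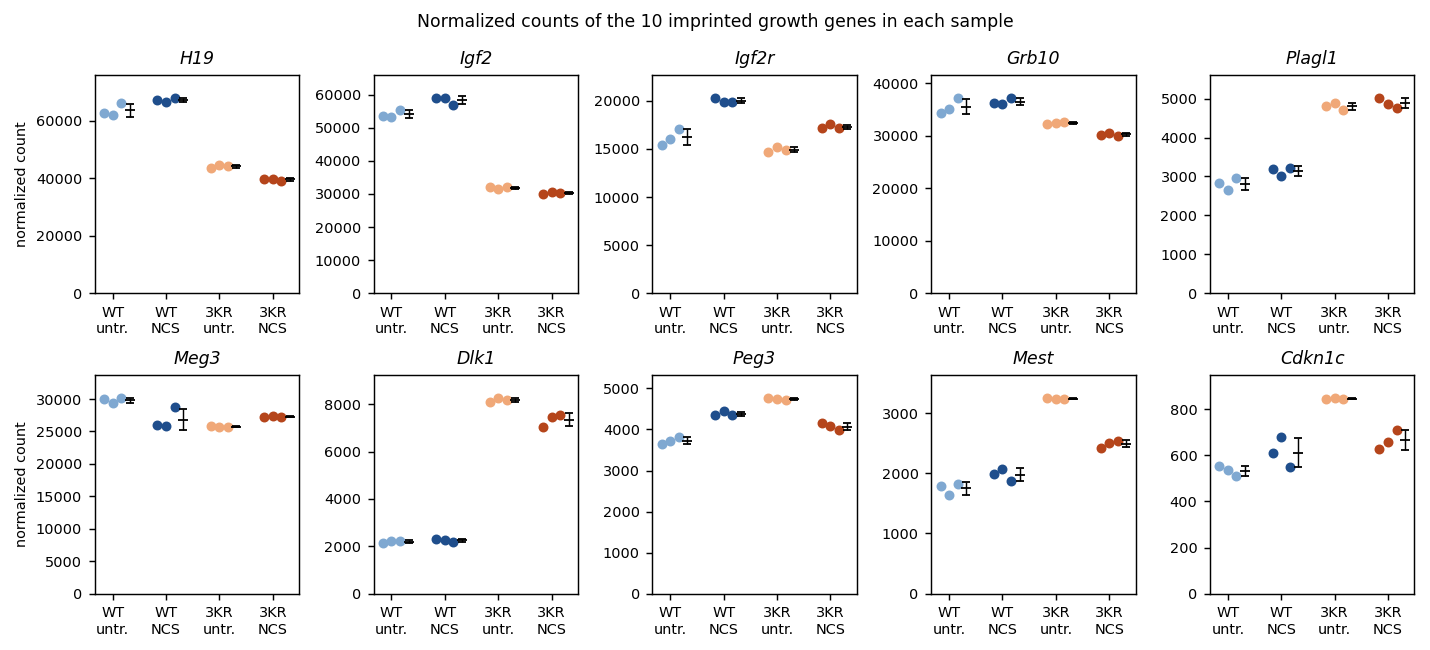
Normalized count (vertical linear axes from 0, own scale in each panel) of each of the 10 genes in the 12 samples, with the mean and SD of the 3 samples of a group beside its points. Dlk1 separated the genotypes most, with 2139 to 2239 against 8090 to 8250 without treatment, and in Meg3 after NCS wild-type replicate 3, at 28719, lay away from the other wild-type replicates.

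The same comparison was made after NCS, between other samples of the 2 genotypes. Here 8 of the 10 genes passed the test, 3 higher (Dlk1, Plagl1 and Mest) and 5 lower (Igf2, H19, Grb10, Igf2r and Peg3), while 46.5% of all genes passed, 22.9% higher and 23.6% lower, and 54.4% of those at or above the level of the lowest member. Ranges did not overlap for 8 members and for 54.3% of all genes. The median log2 fold change was -0.04 over the members and 0.00 over all genes. Dlk1 was at 2316, 2264 and 2182 in NCS-treated wild-type MEFs and at 7023, 7474 and 7535 in NCS-treated 3KR MEFs, again with every 3KR sample above every wild-type sample (1.70 ± 0.037, FDR = 7.03e-21). Igf2 was at 58954, 58953 and 56880 against 29850, 30624 and 30301, and at -0.95 ± 0.026 its level in 3KR MEFs was 1.93-fold lower (FDR = 5.21e-19). H19 was at 67167, 66654 and 67880 against 39688, 39905 and 39138 (-0.76 ± 0.025, FDR = 2.45e-17). Both genes of that domain stayed clearly lower in 3KR MEFs. Igf2r was at 20281, 19878 and 19828 against 17121, 17557 and 17152 (-0.21 ± 0.033, FDR = 1.15e-05), and Grb10 at 36141, 35949 and 37153 against 30137, 30504 and 30015 (-0.27 ± 0.028, FDR = 2.21e-08). In each of these genes the wild-type samples were all higher.

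Plagl1 stayed higher in 3KR MEFs after NCS, at 5015, 4856 and 4764 against 3201, 3007 and 3224 (0.63 ± 0.040, FDR = 3.92e-12). Mest was at 2426, 2506 and 2536 in 3KR against 1994, 2076 and 1869 in wild-type MEFs, still without overlap but at a smaller log2 fold change of 0.33 ± 0.045 (FDR = 2.08e-06). Peg3 was lower in 3KR than in wild-type MEFs after NCS, with 4149, 4078 and 3991 against 4363, 4445 and 4350 (-0.11 ± 0.032, FDR = 0.00798), the opposite of its direction without treatment. Meg3 was at 27302, 27385 and 27173 in 3KR and 25985, 25830 and 28719 in wild-type MEFs, where replicate 3 exceeded all 3KR samples and the other wild-type samples lay below them (0.02 ± 0.031, FDR = 0.567). Without that wild-type library Meg3 was higher in 3KR MEFs (0.08, FDR = 0.0110), and without wild-type replicate 2 its value was -0.0023 (FDR = 0.965). Cdkn1c was at 629, 657 and 711 in 3KR and 610, 677 and 548 in wild-type MEFs, with overlapping ranges (0.12 ± 0.071, FDR = 0.174). It passed only without wild-type replicate 2 (0.20, FDR = 0.0297).

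**Figure D3:**
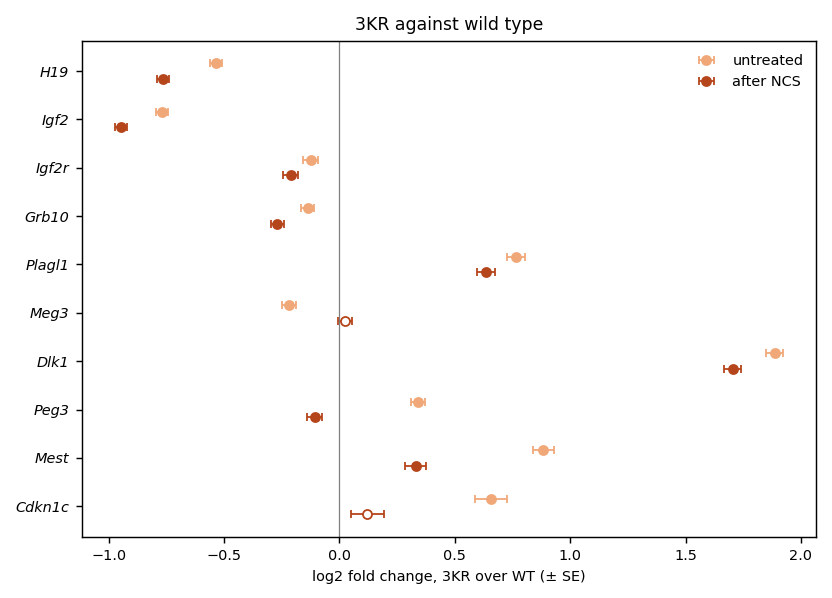
Log2 fold change of 3KR over wild-type MEFs (horizontal axis, ± SE) for each gene without treatment (light) and after NCS (dark), where filled points passed an FDR of 0.05 and open points did not. Mest, Cdkn1c and Peg3 moved towards or past 0 after NCS, from 0.88, 0.66 and 0.34 to 0.33, 0.12 and -0.11, and H19 and Igf2 lay further below 0, at -0.76 and -0.95.

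The next comparisons asked how 3 h of NCS went with these genes within each genotype. They use the same untreated samples as the comparison of genotypes. In wild-type MEFs 8 of the 10 genes passed the test, 7 of them higher after NCS (Igf2r, Peg3, Cdkn1c, Mest, Plagl1, Igf2 and H19) and Meg3 lower, against 26.7% of all genes, 14.3% higher and 12.4% lower. In the genes at or above the level of the lowest member the share was 37.4%. In 3KR MEFs 9 of 10 passed, 2 of them higher (Igf2r and Meg3) and 7 lower (Mest, Cdkn1c, Peg3, H19, Dlk1, Grb10 and Igf2), against 30.8% of all genes, 15.8% higher and 15.0% lower, and 41.4% of those at or above the level of the lowest member. The changes were small in both genotypes, with log2 fold changes from -0.16 to 0.30 in wild-type and from -0.38 to 0.21 in 3KR MEFs. The median was 0.13 over the members in wild-type MEFs and -0.13 in 3KR MEFs, while the medians over all genes were 0.01 and -0.00. Of the 8 fibroblast markers, 4 rose and 1 fell after NCS in wild-type MEFs, 1 rose and 4 fell in 3KR MEFs, and 3, Col3a1, Lum and Pdgfra, had a lower response in 3KR than in wild-type MEFs. Of the 4 cartilage markers tested, 1 fell in wild-type MEFs, and 1 rose and 2 fell in 3KR MEFs. In 3KR MEFs 3 of 7 Schwann cell markers and 1 of 7 macrophage markers fell, and none of either list passed in wild-type MEFs. The part of these markers in the members' changes was not tested. Groups did not overlap for 7 members in wild-type MEFs, against 35.1% of all genes, and for 9 in 3KR MEFs, against 47.6%.

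Igf2r, the IGF2 scavenging receptor, rose in both genotypes. From the untreated values given before it went to 19828 to 20281 in wild-type MEFs (0.30 ± 0.033, FDR = 2.42e-07) and to 17121 to 17557 in 3KR MEFs (0.21 ± 0.033, FDR = 2.22e-05), above every untreated sample of the genotype. Airn, its antisense RNA, rose as well, by 0.47 (FDR = 0.00280) and 0.59 (FDR = 0.000471). Mest, the hydrolase, rose in wild-type MEFs (0.18 ± 0.046, FDR = 0.00603) and fell in 3KR MEFs from at least 3234 to at most 2536 (-0.38 ± 0.044, FDR = 4.83e-07). Peg3 did likewise, with 0.23 ± 0.032 (FDR = 6.62e-06) in wild-type and -0.22 ± 0.032 (FDR = 1.11e-05) in 3KR MEFs, and in neither genotype did the treated and untreated samples overlap. Cdkn1c, the p57 gene, fell in 3KR MEFs from at least 842 to at most 711 (-0.34 ± 0.069, FDR = 0.000497), and in wild-type MEFs it was at 0.19 ± 0.072 with an FDR just under the threshold (0.0482) and overlapping samples.

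H19 rose slightly in wild-type MEFs (0.08 ± 0.025, FDR = 0.0284) and fell in 3KR MEFs (-0.16 ± 0.025, FDR = 4.60e-05). Igf2 was at 0.11 ± 0.025 (FDR = 0.00299) and -0.07 ± 0.026 (FDR = 0.0353), also up in wild-type and down in 3KR MEFs. Meg3 went the other way, down in wild-type MEFs (-0.16 ± 0.031, FDR = 0.000549) and slightly up in 3KR MEFs (0.09 ± 0.031, FDR = 0.0401), where all treated samples lay above all untreated ones. Dlk1 fell in 3KR MEFs (-0.15 ± 0.034, FDR = 0.00139) and had no called change in wild-type MEFs (0.03 ± 0.038, FDR = 0.622). Plagl1 rose in wild-type MEFs (0.16 ± 0.041, FDR = 0.00564), and in 3KR MEFs its value was 0.03 ± 0.039 (FDR = 0.674). Grb10 fell in 3KR MEFs (-0.10 ± 0.028, FDR = 0.00819), and in wild-type MEFs its value was 0.03 ± 0.028 (FDR = 0.420).

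Several of these small changes rested on all libraries being present. In wild-type MEFs H19 no longer passed without untreated replicate 1 or 2 or NCS replicate 1 or 3, nor in a fit of these 6 samples alone (FDR 0.0551 to 0.168), and Mest no longer passed without untreated replicate 2 or NCS replicate 2 or in that fit (0.0520 to 0.0577). Plagl1 lost its call without untreated replicate 2 and in that fit (0.0506 to 0.0526), and Cdkn1c without any of the 3 untreated replicates or NCS replicates 1 or 2, in that fit and with at least 10 counts required (0.0555 to 0.318). Grb10 in wild-type MEFs passed without untreated replicate 3 (0.07, FDR = 0.0247). In 3KR MEFs Igf2 no longer passed without any single library of the 6 (0.0522 to 0.134), and neither did Meg3, which also missed the threshold with the Wald test of DESeq2 (0.0517 to 0.103).

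**Figure D4:**
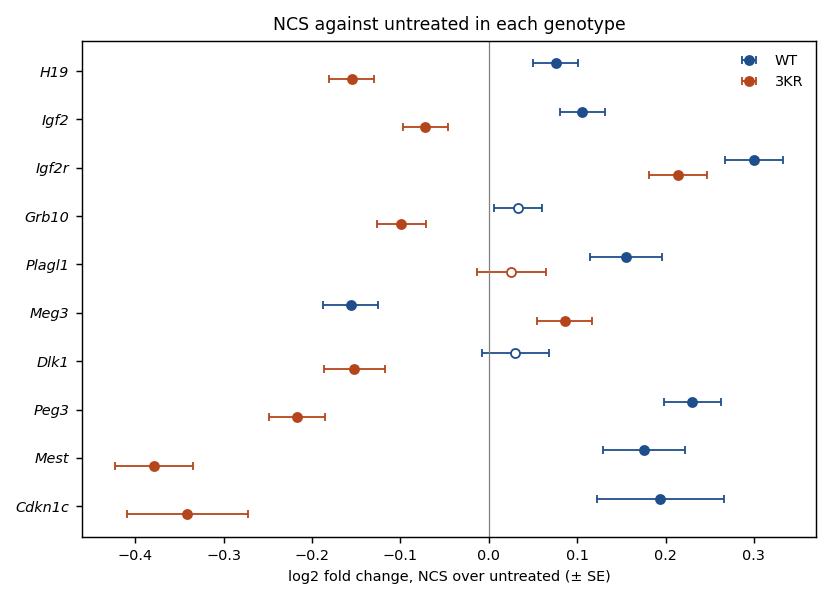
Log2 fold change of NCS over untreated samples (horizontal axis, ± SE) for each gene in wild-type (blue) and 3KR (red) MEFs, where filled points passed an FDR of 0.05 and open points did not. Igf2r lay above 0 in both genotypes, at 0.30 and 0.21, and Mest, Cdkn1c, Peg3, H19 and Igf2 lay above 0 in wild-type and below 0 in 3KR MEFs.

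Whether NCS moved a gene differently in the 2 genotypes was tested directly, as the response in 3KR MEFs minus that in wild-type MEFs. Of the 10 genes 7 passed, 6 with a lower response in 3KR MEFs and Meg3 with a higher one. This compares with 3.73% of all tested genes, 1.86% higher and 1.87% lower, and with 6.01% of the genes at or above the level of the lowest member. That level is a floor set by Cdkn1c. The other members lie above it, and shares at their own levels were not worked out. The median difference was -0.18 over the members and 0.00 over all genes. Mest differed most, by -0.55 ± 0.064 (FDR = 1.13e-05), followed by Cdkn1c with -0.54 ± 0.099 (FDR = 0.00210) and Peg3 with -0.45 ± 0.045 (FDR = 1.71e-06). These are a hydrolase, a cell cycle inhibitor and a zinc finger protein, and each of them had been higher in 3KR MEFs before treatment. The same untreated samples enter both differences, which are thus not independent. H19 differed by -0.23 ± 0.036 (FDR = 0.000324), Igf2 by -0.18 ± 0.036 (FDR = 0.00507) and Meg3 by 0.24 ± 0.044 (FDR = 0.00179). Dlk1 was at -0.18 ± 0.051 with an FDR close to the threshold (0.0468), and it lost the call without any 1 library except the third wild-type replicates and with at least 10 counts required (0.0564 to 0.154).

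Grb10 (-0.13 ± 0.039, FDR = 0.0613), Plagl1 (-0.13 ± 0.056, FDR = 0.240) and Igf2r (-0.09 ± 0.047, FDR = 0.372) did not pass. Grb10 did pass with DESeq2 size factors, with the Wald test of DESeq2 and without the filter on low counts. With the replicate number within each genotype as a block, which pairs treated with untreated samples, 9 of the 10 passed, as did 1379 of all 15327 genes. Grb10 (FDR = 0.00109) and Plagl1 (FDR = 0.0294) were added. Without replicate 3 of the untreated wild-type samples all 10 passed, as did 7.40% of all genes, with Grb10 at -0.17, Plagl1 at -0.17 and Igf2r at -0.13, where 9 differences were below 0 and that of Meg3 was above 0. In the main fit 1 of 41 other tested genes listed as imprinted passed, against 3.73% of all genes. It was Dcn, which codes for the matrix proteoglycan decorin (-0.28, FDR = 0.00876).

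Neighbours of the members in the same imprinted domains were read from the list of other imprinted genes. Whether each gene of that list is read from only 1 copy in these MEFs was not measured. Around Cdkn1c, Cd81 (-0.17, FDR = 0.000136), Nap1l4 (-0.14, FDR = 0.000962) and Osbpl5 (-0.25, FDR = 4.00e-06) were lower in untreated 3KR MEFs, where Cdkn1c was higher. Dhcr7, an enzyme of cholesterol synthesis at the edge of that region, was higher (0.53, FDR = 2.07e-09), and Tssc4 (0.02, FDR = 0.829) and Slc22a18 (0.14, FDR = 0.695) did not pass. In the Peg3 domain Zim1, a maternally active zinc finger gene, was lower (-0.49, FDR = 0.000862), opposite in direction to Peg3. Beside Grb10, Ddc (0.52, FDR = 0.0262) was higher and Cobl (-0.11, FDR = 0.504) did not pass. Ins2, Kcnq1, Phlda2, Ascl2, Slc22a2, Slc22a3, Usp29 and Klf14 had at most 9 counts in any sample and were not tested, and Kcnq1ot1, Rian, Mirg and Zfp264 were not analysed here. Over the whole list, 22 of 41 tested genes passed in that comparison, against 45.7% of all genes. Of the 22, 8 were higher and 14 lower, and the median log2 fold change over the list was -0.07. The 3 with the lowest p-values were Dcn (0.75, FDR = 6.17e-13), Peg10 (-0.82, FDR = 1.41e-12), a retrotransposon-derived gene of the placenta, and Dhcr7. After NCS 7 of the 41 passed in wild-type and 13 in 3KR MEFs, against 26.7% and 30.8% of all genes. Blcap (0.50 and 0.56) and Cd81 (0.35 and 0.37) rose in both genotypes.

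**Figure D5:**
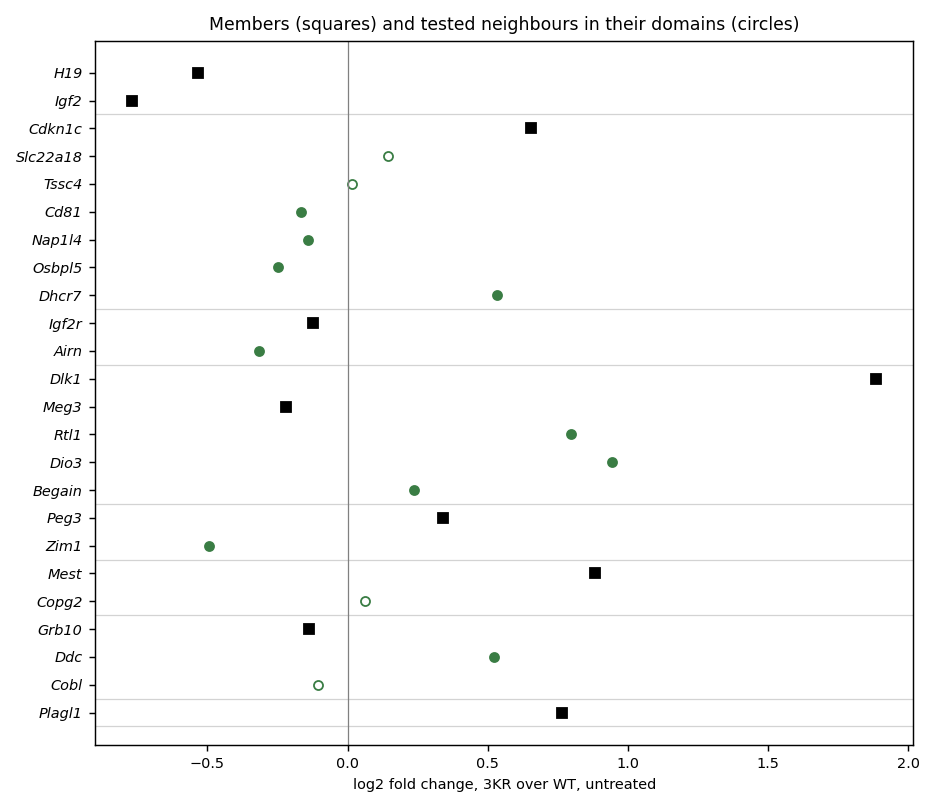
Log2 fold change of 3KR over wild-type MEFs without treatment (horizontal axis) for the members (squares) and the tested genes of their imprinted domains (circles), with lines between domains, filled where the FDR was under 0.05. Dlk1, Rtl1, Dio3 and Begain lay above 0 and Meg3 below it, and Zim1 lay opposite Peg3.

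The IGF pathway around Igf2, Igf2r and Grb10 and the partners of Dlk1 were read from a list of 26 genes, all of them tested. Without treatment 20 passed between genotypes, 10 higher and 10 lower in 3KR MEFs. Of all genes, 45.7% passed there, and 52.8% of those at or above the level of the lowest member. The secreted binding proteins that hold IGFs went both ways. Igfbp4 (0.72, FDR = 3.94e-16), Igfbp3 (1.16, FDR = 4.58e-15) and Igfbp5 (0.08, FDR = 0.0462) were higher in 3KR MEFs. Igfbp2 (-0.56, FDR = 1.13e-12) and Igfbp7 (-0.38, FDR = 1.16e-09) were lower, and Igfbp6 (-0.07, FDR = 0.386) did not pass. Gpc3, a glypican on the X chromosome that restrains fetal growth, was lower (-0.72, FDR = 6.03e-14), in the direction of Igf2. After NCS 9 passed in wild-type MEFs, against 26.7% of all genes, and 14 in 3KR MEFs, against 30.8%. In wild-type MEFs 6 were higher and 3 lower, and in 3KR MEFs 7 were higher and 7 lower. Notch3 (0.92, FDR = 8.32e-13) and Notch1 (0.43, FDR = 7.11e-08), receptors of the pathway that Dlk1 acts on, had the lowest p-values in wild-type MEFs. Irs1, the adaptor of the insulin and IGF1 receptors (-0.68, FDR = 1.02e-09), and Igfbp3 (-0.60, FDR = 2.70e-09) had them in 3KR MEFs, where both fell. The response differed between genotypes in 7 of the 26, 1 higher and 6 lower in 3KR MEFs, against 3.73% of all genes.

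Genes that set or keep imprints were a list of 20, of which 19 were tested. Between untreated genotypes 10 passed, 6 higher and 4 lower, against 45.7% of all genes. Dnmt1, which copies DNA methylation to new strands, was higher in 3KR MEFs (0.35, FDR = 5.63e-09), with normalized counts of 4123 ± 96.4 (SD, n = 3) in wild-type and 5263 ± 35.1 in 3KR MEFs. Zfp57 was lower (-0.32, FDR = 7.00e-06), as was Tet2, an enzyme that oxidizes methylated cytosine (-0.38, FDR = 1.46e-05). After NCS 10 of the 19 passed in wild-type MEFs, 2 higher and 8 lower, against 26.7% of all genes. In 3KR MEFs 8 passed, 3 higher and 5 lower, against 30.8%. Ctcf, the insulator protein that binds between H19 and Igf2, fell in both genotypes (-0.31 and -0.29), and Eed, a Polycomb subunit, rose in both (0.32 and 0.35). DNA methylation was not measured. Among the markers of other cell types, the lowest p-values between untreated genotypes were those of Acan (2.68), Ngfr (-2.17) and Des (-1.53), from cartilage, Schwann cell and muscle lists. After NCS Acan had the lowest in both genotypes (-0.27 and -0.39), next to Ptprc in wild-type MEFs (0.45, FDR = 0.0973, not passed) and Col2a1 in 3KR MEFs (0.22).

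As a description over the 12 samples, which all carry the differences between groups, Pearson's r of log2 CPM was 0.99 between H19 and Igf2, 0.98 between Dlk1 and Plagl1 and -0.98 between Igf2 and Dlk1. Other members were hardly related, with 0.02 between Igf2r and Meg3, -0.08 between Igf2r and Peg3, -0.14 between Peg3 and Grb10 and -0.29 between H19 and Peg3. Outside the members, the genes most like Igf2 were the collagen genes Col14a1 and Col8a1 (r = 0.998 each). Those most like Dlk1 were Col6a3 and Capn6 (0.999 each), like H19 Ano5 (0.997) and Piezo2 (0.996), like Plagl1 Ptgfrn (0.994) and Gas6 (0.992), like Mest Fbn1 and Megf6 (0.982 each), and like Igf2r Tgif1 (0.985) and Slc5a3 (0.980). Grb10 was most like Pafah1b1 (0.982) and Piezo2 (0.981), Cdkn1c most like Scp2 (0.964) and Hacd2 (0.961), and Peg3 most like Ogn (0.937) and Col3a1 (0.920). Meg3 was most like Zfp57 (0.955) and Tead3 (0.921), and no link between Meg3 and either gene was tested. In untreated wild-type, NCS-treated wild-type, untreated 3KR and NCS-treated 3KR MEFs, Zfp57 was at 1740 ± 32.1, 1534 ± 122, 1395 ± 19.5 and 1493 ± 41.9 normalized counts (SD, n = 3), and Meg3 was at 29823 ± 370, 26845 ± 1625, 25742 ± 45.8 and 27287 ± 107.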

How the data were processed

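Per the labels, poly(A) RNA libraries were made with a stranded kit, and the submitters' processing notes name TopHat, HTSeq and DESeq and the build mm9. The authors deposited raw read counts per Ensembl gene, neither normalized nor filtered. The strand setting of the counting is not given in the sources used here. Positions, exon lengths and symbols were read from GENCODE M21 (GRCm38), which holds 32919 of the 37991 identifiers. Genes were filtered with filterByExpr, scaled by TMM and tested with the quasi-likelihood test of edgeR 4.0.16 (R 4.3.3), with 1 coefficient per group and all 12 samples in the fit. The p-values are two-sided and adjusted by the Benjamini-Hochberg method over 15327 genes, with a threshold of 0.05. Normalized counts use the size factors of DESeq2 1.42.0, and log2 CPM a prior count of 2. Alternatives were DESeq2 size factors and Wald test, other count filters, only the samples compared, the replicate number as a block, each sample left out and, chosen after seeing the data, wild-type replicate 3 left out of both treatments. For NCS and the difference in response the block was the replicate number within each genotype, which pairs treated with untreated samples. Whether samples of 1 genotype with the same number in the labels pair was checked by correlating how far each sample lay from the mean of its group. It was 0.319 to 0.525 in wild-type and -0.00264 to 0.0615 in 3KR MEFs over genes with a log2 CPM of at least 4, and at most 0.0973 over all tested genes. The members and the gene lists were chosen with earlier results of these data known. Named genes are the members, the 3 lowest p-values of each list between untreated genotypes and the 2 lowest for NCS in each genotype, the 2 genes most like each member, and E2f1, Cdkn1a, Xist and Ddx3y. Genes that neighbour or overlap a member and the other IGF-binding proteins were added after their values were seen. The edgeR step was tested on simulated data.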

Additional observations from a re-analysis of the deposited data

Results flagged for a closer look

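The response to NCS differed between the genotypes in 7 of the 10 genes by the test of the difference itself, given here as the log2 response in 3KR MEFs minus that in wild-type MEFs, as it did in 3.73% of all tested genes and in 6.01% of those at or above the level of the lowest member. It was -0.55 for Mest, -0.54 for Cdkn1c, -0.45 for Peg3, -0.23 for H19, -0.18 for Igf2, -0.18 for Dlk1 and 0.24 for Meg3. For Mest, Peg3, H19, Igf2, Cdkn1c and Meg3 the responses of the genotypes had opposite signs and each passed its own test, while for Dlk1 only the fall in 3KR MEFs did. Of the genes with both calls, only Peg3 kept them in every alternative analysis. The rises of H19, Mest and Cdkn1c in wild-type MEFs lost their call in some alternatives, as did the changes of Igf2 and Meg3 in 3KR MEFs. Wild-type replicate 3, which stood apart from the other wild-type samples, enters each of these differences, and without it in both treatments all 10 genes passed, while the share over all genes rose to 11.8%.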

How the results depend on the processing

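Over 5 comparisons and all alternatives, 642 of 700 single values kept their direction and their side of the threshold, 41 lost their call, 16 gained it and 1 turned its sign, Meg3 between genotypes after NCS, at -0.0023 without NCS-treated wild-type replicate 2 (0.080 and called without replicate 3). All 10 members passed between untreated genotypes throughout. For NCS in wild-type MEFs the number that passed was 8, and 4 with only the 6 samples compared, and the cause was not tested. That setting moved the calls over all genes from 4090 to 3088 in wild-type and from 4721 to 6175 in 3KR MEFs, where 9 members passed. With single samples left out it was 10 between untreated genotypes, 8 to 9 after NCS, 4 to 8 for NCS in wild-type MEFs (4 without untreated replicate 2), 7 for NCS in 3KR MEFs and 6 to 10 for the difference in response. With the replicate number as a block, taken within each genotype for NCS and the difference in response, it was 10, 8, 8, 9 and 9. The block thus changed the count only for the difference in response. The block raised the calls over all genes for that difference from 572 to 1379. For NCS the block raised calls over all genes from 4090 to 5239 in wild-type and from 4721 to 5801 in 3KR MEFs. Under TMM scaling and library totals, 58 group means of normalized counts were scored as the same and 22 as moved. The largest move was 2.50%. Leaving out samples moved no H19 to Igf2 or Meg3 to Dlk1 ratio beyond 1 SD. With 3 samples a group and a biological coefficient of variation of 3.95%, changes of a few percent lie at the limit of what can be called.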
